A study of Danio rerio with 9 samples.

Results

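Transcribed loci without a gene name made up most rows of the authors' expression tables for whole zebrafish exposed to perfluorobutane sulfonate (PFBS), a short-chain perfluorinated sulfonate. The loci described here are the rows whose gene field holds a dash and whose locus lies outside chromosome 4, chosen by name and position alone and not by any measured value. They numbered 15888 of 29280 rows in the table of 16 µM PFBS against control, 13977 of 26901 in that of 32 µM against control and 15786 of 29163 in that of 32 µM against 16 µM. All were on the other 24 numbered chromosomes or, in 6 or 7 rows per table, on the mitochondrial chromosome, and no row lay on an unplaced scaffold.

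The 9 RNA samples, each a pool of 15 whole embryos, were taken from AB strain fish 96 h after fertilization. The 3 groups of 3 samples were a solvent control with 0.01% DMSO, 16 µM PFBS and 32 µM PFBS. All groups were freed of the chorion at 24 h and had their medium renewed every 24 h, and the labels give 37 °C for all of them, which is unusually warm for this fish. The tables hold 1 value per group, in FPKM (fragments per kilobase of transcript, scaled to the mapped fragments of a library). Levels and ratios therefore come without an error, and sequencing depth is unknown. The authors' q-value is the sole measure that could take the variation among samples into account, and its test was not stated. The words "rose" and "fell" are used for loci with a q-value under 0.05. The labels' description of whole animals was checked on 29 marker genes of 10 organs or tissues. Of these, 28 were listed, at 6.41 to 12944 FPKM in the control.

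A transcript assembler such as Cufflinks joins overlapping read alignments into transcripts and groups them into loci, and a locus that matches no gene of the annotation keeps an identifier and no name. Such loci can be genes missing from the annotation, long noncoding RNAs, transcribed repeats, pieces of an untranslated region cut off from their gene, or traces of unspliced RNA. The tables give no strand, exon or sequence, so which of these a locus is cannot be told apart here, and its position is given only against the named rows of the same table. All coordinates are those of the tables, on build danRer7.

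The unnamed loci were transcribed at a low level. Their median in the control was 2.20 FPKM in the 16 µM table, against 9.92 FPKM for the 12783 named rows, and at 16 µM PFBS the medians were 2.36 and 9.71 FPKM. In the 32 µM table the control medians were 2.77 and 10.4 FPKM, and in the table of both doses the medians at 16 µM were 2.33 and 9.92 FPKM. The row with the lowest level in its higher group stood at 0.779, 1.10 and 0.841 FPKM in the 3 tables. The tables thus begin at unlike levels, and loci below those values are not seen. Of the 16 µM table's rows, 41.8% of the unnamed loci stayed under 2 FPKM in both groups, against 9.53% of the named rows, and 5.01% of the unnamed loci against 28.5% of the named rows reached 20 FPKM.

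They were also short. Their median span was 3366 bases in the 16 µM table, 3853 in the 32 µM table and 3651 in the table of both doses, against 18413, 18504 and 18586 bases for named rows. A span runs from the first to the last base of a locus, introns included, and is no transcript length. Some rows are given 1 common locus, and for 13.2% of the unnamed loci in the 16 µM table the span belongs to such a group of rows. Among the loci that stand alone the median was 2285 bases against 15149 for named rows.

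**Figure D1:**
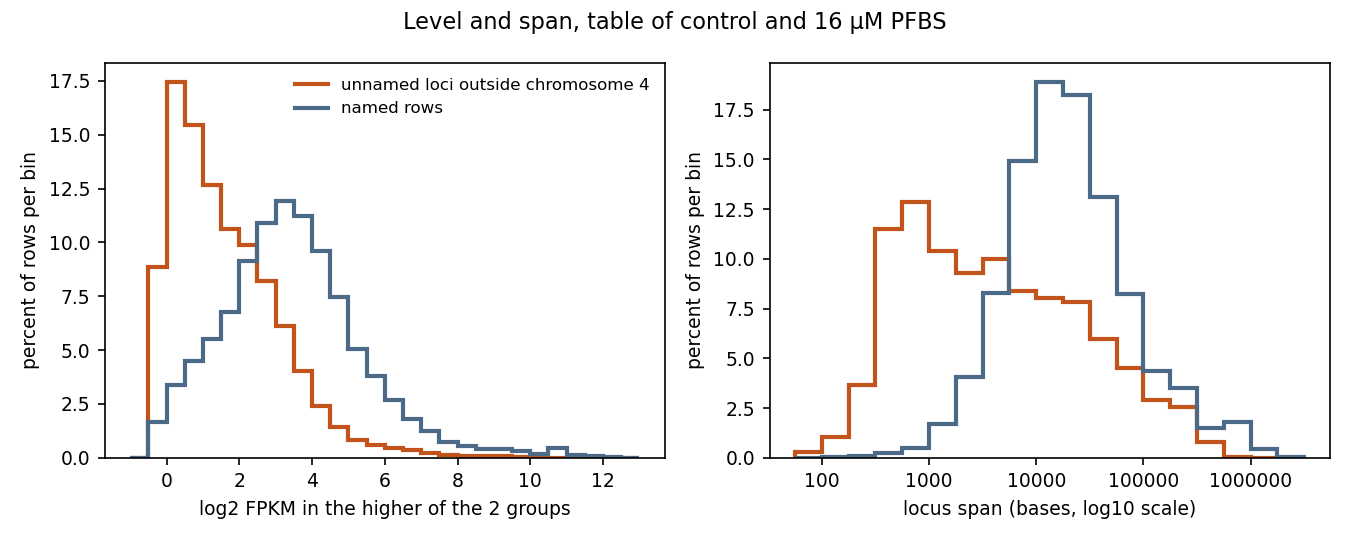
Percent of rows by level (left, log2 FPKM in the higher of the 2 groups) and by span (right, bases on a log10 scale), for the 15888 unnamed loci and the 12783 named rows of the table of 16 µM PFBS and control. The unnamed loci peak at lower levels and at shorter spans, and both kinds of row stop at the lowest level the table holds.

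A small class of very short loci stood at high FPKM. There were 281 unnamed loci in the 16 µM table that stand alone and spanned under 200 bases, whose median in the higher group was 52.0 FPKM. The 4358 loci of 200 to 1000 bases had a median of 1.62 FPKM, and those of 10000 to 100000 bases 4.26 FPKM. Since FPKM divides by transcript length, a few fragments on a very short transcript give a high value. How far this sets their level was not tested.

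The highest unnamed locus in all 3 tables lay on chromosome 23, at 25592886 to 25593975 in the 16 µM table, 4.08 kb from pa2g4b, a gene for a growth-regulating nuclear protein. It stood at 4153 FPKM in the control and 4300 FPKM at 16 µM, with a log2 ratio of 0.05 in the authors' deposited table (q = 0.998). In the 32 µM table it stood at 4771 and 4640 FPKM. The groups thus lay close to each other, and none of the 3 tables called this locus. The next was a locus of 118 bases on chromosome 8 (38940314 to 38940432), 89.4 kb from the beta-3 adrenergic receptor gene adrb3a, with 3373 FPKM in the control and 3350 FPKM at 16 µM. A locus of 76 bases on chromosome 9 (52364644 to 52364720), 247 kb from the glucagon gene gcgb, varied more. Its level was 1010 and 929 FPKM in control and 16 µM, and 1017 and 1808 FPKM in control and 32 µM. Its log2 ratio of 0.83 at 32 µM in the authors' deposited table did not pass the test (q = 0.147). A locus of 92 bases on chromosome 24 (2458997 to 2459089), 94.5 kb from the neuritin gene nrn1a, stood at 885 and 729 FPKM in control and 16 µM. In the table of both doses 3 very short loci on chromosome 19 joined the highest rows. The 94 bases at 15324929 to 15325023 had 2180 FPKM at 16 µM and 2272 FPKM at 32 µM. The 111 bases at 5952850 to 5952961 had 1596 and 1409 FPKM. The 82 bases at 5954764 to 5954846, 8.72 kb from the row of the keratin genes cyt1l and krtt1c19e, had 1296 and 1489 FPKM. None of the 3 was called.

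Other high unnamed rows share a locus with abundant named genes, and reads of near-identical copies may be split among such rows, so their values are uncertain. At the fast muscle myosin heavy chain genes myhz1.1 and myhz1.2 on chromosome 5 (33900110 to 33946746), 3 unnamed rows stood at 1226, 910 and 798 FPKM in the control and at 461, 261 and 242 FPKM at 16 µM. Their log2 ratios in the authors' deposited table were -1.41, -1.80 and -1.72, and that of the row named myhz1.1 and myhz1.2 was -1.54, all with q = 0.998. In the authors' deposited table for 32 µM the same 3 rows had ratios of -0.31, -0.38 and -0.36, again without passing the test. All 4 rows of this locus were lower at 16 µM than in either other group, and no row was called. The keratin locus on chromosome 19 (5948851 to 5993668) held 3 unnamed rows beside the row of cyt1, cyt1l, krt17 and krtt1c19e. The highest of them had 739 FPKM in the control and 792 FPKM at 16 µM. An unnamed row at the glutamate dehydrogenase gene glud1b on chromosome 12 (27373145 to 27462892) had 1585 and 1710 FPKM in control and 32 µM, against 229 and 231 FPKM for glud1b.

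Unnamed loci were spread over all chromosomes. In the 16 µM table they formed 47.7% of the rows on chromosome 19, the lowest share, and 63.3% on chromosome 17, the highest. The same chromosomes were the extremes in the 32 µM table (45.7% and 60.2%) and in the table of both doses (48.2% and 62.9%). They were the majority on 23, 19 and 22 of the 24 chromosomes in the 3 tables. Among the numbered chromosomes, per megabase up to the last listed row, chromosome 3 held the most unnamed loci in each table, 15.3, 13.1 and 14.7, against medians over chromosomes of 12.1, 11.2 and 12.1. On the mitochondrial chromosome every listed row was unnamed.

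**Figure D2:**
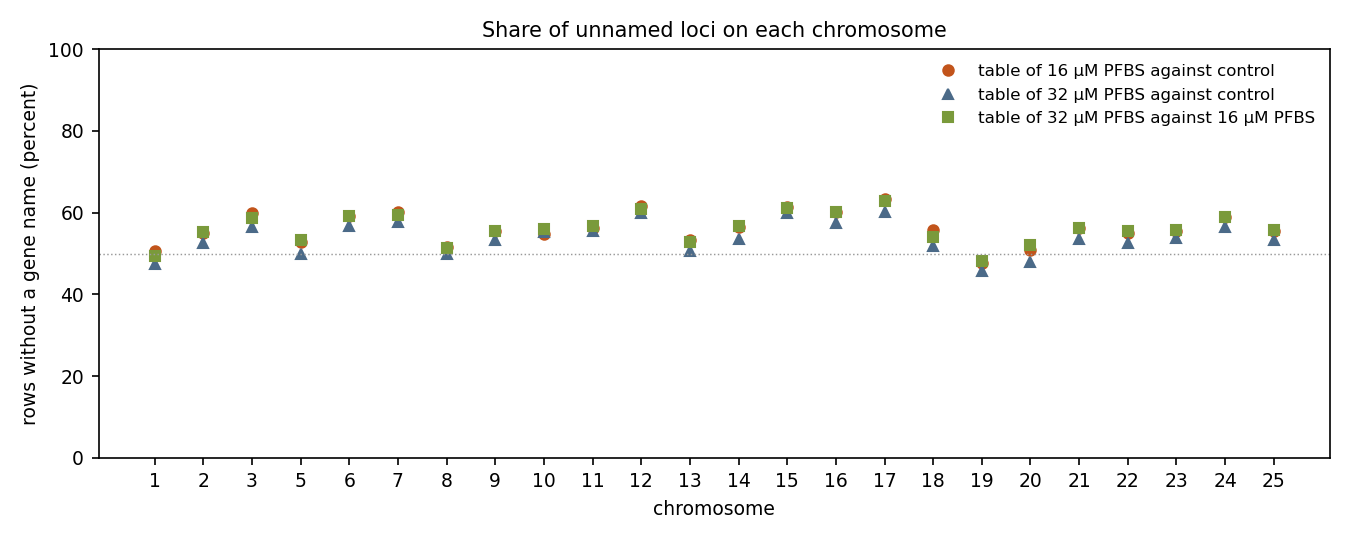
Percent of rows without a gene name on each of the 24 numbered chromosomes other than chromosome 4, with 1 symbol per deposited table. Chromosome 19 is lowest and chromosome 17 highest in each table, and the shares in the 32 µM table, which holds no row under 1.10 FPKM, are lowest on most chromosomes.

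Most unnamed loci shared no base with a named row, 96.5% of them in the 16 µM table. Overlapping alignments are grouped into loci, and only what matches no gene stays unnamed. The share therefore follows largely from how rows are made and is no finding on where the loci lie. Of the rest in that table, 553 had the same locus as a named row and 1 overlapped a named row in part. By distance, 26.7% lay within 5 kb of a named row without touching it, 39.2% at 5 to 50 kb and 30.6% beyond 50 kb. In the 32 µM table the shares were 96.9% for loci apart from named rows and 30.8% for those beyond 50 kb, and in the table of both doses 96.4% and 31.2%. Loci within 5 kb of a named row had a median of 3.23 FPKM in the higher group of the 16 µM table, and those beyond 50 kb 2.03 FPKM. The median spans of these classes were 4444 and 2101 bases. Loci nearer to named genes were thus higher and longer at the median. Unnamed loci also lay in runs with no named row between them. The longest run of the 16 µM table held 44 loci on chromosome 7, from 62963286 to 65275604, and the same stretch held the longest run of the 32 µM table (36 loci) and of the table of both doses (49 loci). Over all 4523 runs of the 16 µM table the median length was 2 loci, and 1625 runs were a single locus.

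Across pairs of an unnamed locus and its nearest named row, the log2 ratios were almost unrelated. For the 4235 pairs within 5 kb in the 16 µM table, Pearson's r was 0.04 and Spearman's rho 0.06, and for the 3727 pairs of the 32 µM table they were 0.04 and 0.05. With both rows at 5 FPKM or more, 1157 pairs gave 0.01 and 0.07 at 16 µM and 1163 pairs gave 0.04 and 0.07 at 32 µM. Pairs that share 1 locus had 0.24 and 0.12 at 16 µM (554 pairs) and 0.09 and 0.06 at 32 µM (439 pairs). These are descriptions across pairs that come from the same libraries, and strand was not used. Most rows carried no called change, with 76 of 29280 rows called at 16 µM and 492 of 26901 at 32 µM. The correlations therefore say little about loci that changed.

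The log2 ratios of unnamed loci were spread more widely than those of named rows. At 16 µM, 791 of them differed at least 2-fold between the groups, 684 higher and 107 lower at 16 µM, against 15 higher and 12 lower among the named rows. At 32 µM, 467 were at least 2-fold higher and 137 lower, against 12 and 11 named rows. Between the doses the counts were 365 higher and 428 lower at 32 µM, against 13 and 14 named rows. In the 3 tables these were 4.98%, 4.32% and 5.02% of the unnamed loci. Among named rows the shares were 0.211%, 0.185% and 0.212%, and among all rows 2.96%, 2.46% and 2.97%. A weak locus may be listed through its higher group alone, and a locus listed in that way differs between the groups. The counts and medians of weak loci, here and below, therefore describe the tables and test nothing. How far such listing sets the counts was not tested. At 5 FPKM or more, 105 unnamed loci were at least 2-fold higher and 16 lower at 16 µM, and 90 and 24 at 32 µM. The larger side was thus the higher one in both tables that contain the control, and not in the table of both doses. Few of these loci passed the authors' test, since 787, 588 and 791 loci with at least a 2-fold ratio were not called in the 3 tables.

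The spread was larger in short and weak loci, and so was the shift of the median, whereas the lean of the 2-fold counts was much alike in all classes. Among loci that stand alone and have a value in both groups of the 16 µM table, those under 1000 bases had a median log2 ratio of 0.16, with 455 at least 2-fold higher and 65 lower among 4638. Those of 1000 bases or more had a median of 0.02, with 150 higher and 23 lower among 9152. Under 1000 bases, 11.2%, 10.4% and 11.3% of unnamed loci differed at least 2-fold in the 3 tables. Among named rows as short, which numbered only 108, 92 and 103, the shares were 0.926%, 4.35% and 4.85%. At 1000 bases or more they were 1.89%, 1.51% and 1.68% of unnamed loci, against 0.135%, 0.147% and 0.146% of named rows. By level over all unnamed loci, 579 were at least 2-fold higher and 91 lower under 5 FPKM, against 105 and 16 at 5 FPKM or more. In the 32 µM table these counts were 377 and 113 under 5 FPKM, against 90 and 24. For the 2 span classes the medians at 32 µM were 0.11 and 0.02, and between the doses -0.02 and 0.00. By level, the median at 16 µM was 0.20 for unnamed loci under 1 FPKM, 0.09 from 1 to 2 FPKM, 0.04 from 2 to 5 FPKM and 0.00 from 5 to 20 FPKM. Named rows stood at -0.01, 0.00, -0.01 and -0.03 in the same classes. In the table of both doses, unnamed loci under 1 FPKM had a median of -0.11, that is, lower at 32 µM than at 16 µM, and named rows 0.03. Over all levels the median of the unnamed loci was 0.04 at 16 µM, 0.03 at 32 µM and 0.00 between the doses, that of named rows -0.02, -0.02 and 0.00, and that of all rows 0.00 in each table. The shift of the unnamed loci was therefore a few hundredths on the log2 scale, and the 2 comparisons that show it share the control samples. At the chromosome level the median was above 0 on all 24 chromosomes in both tables against the control. It ran from 0.02 to 0.05 at 16 µM and from 0.01 to 0.05 at 32 µM. Between the doses it was above 0 on 7 of the 24, from -0.02 to 0.03. Chromosomes are no replicates, since their medians come from the same group values, so this count adds no support to the shift.

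Even at high levels the unnamed loci spread more. At 20 FPKM or more in the higher group, the central 90% of their ratios at 16 µM ran from -0.45 to 0.80, against -0.14 to 0.14 for named rows. Loci of 5 to 20 FPKM ran from -0.24 to 0.54, against -0.18 to 0.16. The median span at 20 FPKM or more was 3202 bases, shorter than the 8304 bases at 5 to 20 FPKM, so that very short loci weigh more in the highest class. Their part in its spread was not tested.

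**Figure D3:**
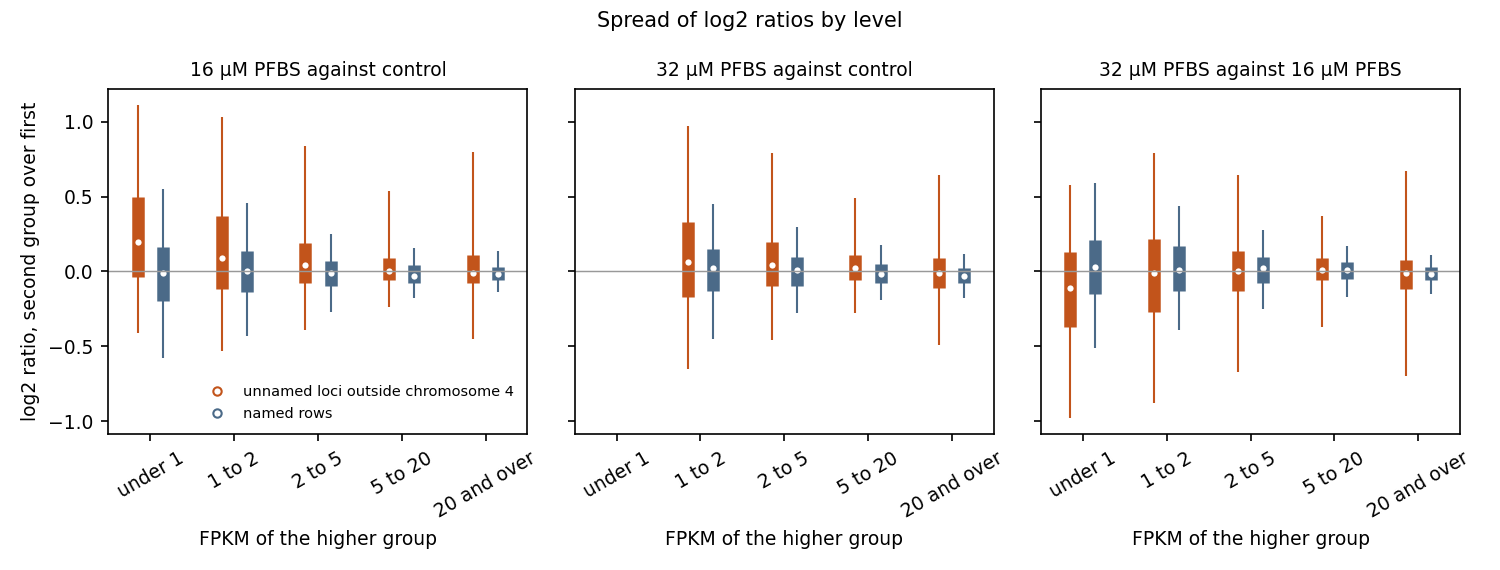
Log2 ratio of the second group over the first by level of the higher group in FPKM, for unnamed loci and named rows in each deposited table; thin lines run from the 5th to the 95th percentile, thick bars from the 25th to the 75th, and circles are medians. The lines of the unnamed loci are longer in nearly every class, and lean upwards at low levels in both comparisons with the control, where the median under 1 FPKM is 0.20 at 16 µM.

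At 16 µM PFBS, 23 unnamed loci passed the authors' test, 10 higher and 13 lower than in the control. That is 0.145% of the unnamed loci, against 0.26% of all rows (0.113% higher and 0.147% lower) and 0.383% of the named rows. The share of unnamed loci called was thus under that of all rows. Of the 23, 17 reached 5 FPKM, and at that level the shares were 0.373% of unnamed loci and 0.476% of named rows. The median size of change was 0.55 on the log2 scale, and 4 of the 23 changed at least 2-fold. The median span of the called loci was 5992 bases and their median level in the higher group 10.2 FPKM.

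The largest decrease at 16 µM was that of a locus on chromosome 12, at 17700526 to 17701814. It went from 5.17 FPKM in the control to 1.25 FPKM, a log2 ratio of -2.05 in the authors' deposited table (q = 0.0219). The nearest named row, 14.1 kb away, was ctslb, a cathepsin L gene, whose own ratio there of -1.74 did not pass the test (q = 0.674). On chromosome 5 (40242302 to 40245854), 30.4 kb from znhit1, a locus fell from 2.55 to 0.646 FPKM, with a ratio of -1.98 in the authors' deposited table (q = 0.0385). Both loci were weak, at 5.17 FPKM or less in each group. A locus of 519 bases on chromosome 24 (16369839 to 16370358), 377 kb from the mitochondrial ribosomal protein gene mrps7, fell from 22.3 to 11.9 FPKM, a ratio of -0.92 in the authors' deposited table. On chromosome 9 (11146628 to 11148217), 112 kb from the acid-sensing ion channel gene asic4a, the level fell from 2.28 to 1.13 FPKM. On chromosome 2, the locus at 14523461 to 14529225 fell from 4.47 to 2.41 FPKM. The last 3 lay more than 100 kb from a named row of the 16 µM table, and none of the 5 had a called nearest named row there.

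Of the 13 loci that fell at 16 µM, 3 lay within 5 kb of a named row, 4 at 5 to 50 kb and 6 beyond 50 kb. Over all unnamed loci of the table the shares in these classes were 26.7%, 39.2% and 30.6%. On chromosome 19 (9550955 to 9562584), 1.84 kb from rprd2a, a gene for a protein that binds the tail of RNA polymerase II, the locus fell from 15.5 to 10.3 FPKM. Its ratio in the authors' deposited table was -0.59, and that of rprd2a was -0.02. The locus on chromosome 11 at 41491184 to 41497254, 3.10 kb from the urotensin 2 gene uts2b, fell from 7.31 to 5.50 FPKM. On chromosome 3, a locus at 13962713 to 13981133 fell from 4.79 to 3.29 FPKM. It lies 67.1 kb from nfil3-6, a gene for a bZIP transcription factor of the family of the clock-linked factor nfil3, whose ratio of -0.31 in the authors' deposited table did not pass the test (q = 0.0871).

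Among the loci that rose at 16 µM, the largest ratio belonged to one on chromosome 3 at 19276209 to 19352499, 21.8 kb from zgc:112320. With 76290 bases it was also the longest called locus of that table. It went from 1.65 to 3.32 FPKM, a ratio of 1.02 in the authors' deposited table (q = 0.0219). A locus on chromosome 3 at 63095197 to 63154365, 23.5 kb from sox9b, a transcription factor gene of cartilage and neural crest, rose from 9.78 to 18.5 FPKM. Its ratio in the authors' deposited table was 0.92, and that of sox9b was -0.13. On chromosome 16 (13458663 to 13461447), 12.8 kb from ceacam1, the level rose from 0.953 to 1.80 FPKM. The locus at 28944809 to 28947529 on chromosome 15, 9.07 kb from samsn1a, rose from 17.8 to 29.4 FPKM, and that on chromosome 20 at 55769100 to 55770268, 702 kb from the kinase gene pak7, from 6.87 to 10.2 FPKM. The highest level among the called loci of this table, 43.1 FPKM in the control and 60.1 FPKM at 16 µM, was on chromosome 16 (25578681 to 25585344), 23.8 kb from the sugar transporter gene slc50a1. A locus on chromosome 20 (29518063 to 29521508), 6.54 kb from klf11a, a gene for a Krüppel-like transcription factor, rose from 10.1 to 13.8 FPKM, and one on chromosome 2 (50019606 to 50024690), 3.22 kb from the endophilin gene sh3gl1a, from 8.63 to 11.6 FPKM. None of the 23 called loci had a called gene as its nearest named row. Over all unnamed loci of that table the nearest named row was called for at most 0.449% in any distance class. The absence among 23 loci therefore says little.

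At 32 µM PFBS, 188 unnamed loci passed the test, 122 higher and 66 lower than in the control. That is 1.35% of the unnamed loci, against 1.83% of all rows (0.959% higher and 0.87% lower) and 2.38% of the named rows. Of the called unnamed loci 64.9% were higher, and of the 295 called named rows 44.1%. The lean was strongest in weak loci. Under 5 FPKM, 67 rose and 16 fell, and at 5 FPKM or more, 55 rose and 50 fell. The latter were 48 and 35 at 5 to 20 FPKM, and 7 and 15 at 20 FPKM or more. For named rows the counts were 22 and 12 under 5 FPKM and 108 and 153 above. These last were 52 and 43 at 5 to 20 FPKM, and 56 and 110 at 20 FPKM or more. At like levels the shares of rows called were close, with 1.29% of unnamed loci and 1.35% of named rows at 2 to 5 FPKM, and 2.18% and 1.69% at 5 to 20 FPKM. At 20 FPKM or more they were 2.75% and 4.53%. The median size of change was 0.41, and 16 of the called loci with a value in both groups changed at least 2-fold.

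A pair of called loci were listed at 0 in the control. The locus on chromosome 16 at 49692535 to 49706222, 1.63 kb from lamtor2, a gene for a lysosomal signalling adaptor, was listed at 0 in the control and at 2.48 FPKM at 32 µM (q = 0.00521). A locus of 261 bases on chromosome 25 (544969 to 545230) was listed at 0 and at 2.22 FPKM (q = 0.00521). It was the shortest called locus of the table. No ratio is given for either, since an FPKM listed at 0 can be a failed estimate.

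The other large increases at 32 µM began from low control levels. A locus on chromosome 23 (10111232 to 10124082), 113 kb from the monocarboxylate transporter gene slc16a7, rose from 0.454 to 2.66 FPKM, a ratio of 2.56 in the authors' deposited table (q = 0.0243). On chromosome 19 (6749030 to 6750207), 14.0 kb from erf, a gene for an ETS-family repressor, the level rose from 0.376 to 1.84 FPKM, with a ratio of 2.29 in the authors' deposited table. The loci on chromosome 9 (8772431 to 8893869), chromosome 11 (43311507 to 43335490) and chromosome 12 (9383995 to 9572064) rose from 0.732 to 2.53, from 0.651 to 1.92 and from 0.979 to 2.58 FPKM. The last, 188069 bases long and 4.88 kb from reep3b, was the longest called locus, and reep3b had a ratio of 0.01 in the authors' deposited table. A locus on chromosome 21 (767145 to 768876), 52.1 kb from the antizyme gene oaz1b, rose from 2.60 to 6.82 FPKM. Of these 8 loci with the largest ratios it alone passed 3 FPKM. Of the stronger loci, one of 486 bases on chromosome 20 (29521022 to 29521508), 6.54 kb from klf11a, rose from 50.2 to 77.2 FPKM, and a ratio of 0.62 stands in the authors' deposited table. It was chosen after its values were seen, as were those below that are picked out for their level.

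The largest decreases at 32 µM were those of 2 neighbouring loci on chromosome 10 beside il2rga, which encodes the shared gamma chain of interleukin receptors. The locus at 34585832 to 34587024 fell from 2 to 0.707 FPKM and that at 34587083 to 34588219 from 1.85 to 0.712 FPKM, with ratios of -1.50 and -1.38 in the authors' deposited table. They lie 251 and 1502 bases from il2rga and 59 bases from each other, while il2rga itself went from 14.1 to 12.9 FPKM (q = 0.406). The loci on chromosome 12 (17700494 to 17701814) and chromosome 2 (14523461 to 14529200) fell from 5.06 to 2.33 FPKM and from 4.56 to 2.20 FPKM, with ratios of -1.12 and -1.06 in the authors' deposited table. In the 32 µM table the named row nearest to the chromosome 2 locus was LOC795615, 28.3 kb away. It went from 1.89 to 0.940 FPKM, and its ratio of -1.01 in the authors' deposited table did not pass the test (q = 0.479). Loci on chromosome 21 (15040686 to 15042603, 449 kb from the aquaporin gene aqp3b) and chromosome 23 (41317155 to 41318944) fell from 1.13 to 0.603 and from 1.61 to 0.877 FPKM. The locus 1.84 kb from rprd2a fell from 15.6 to 9.45 FPKM, with rprd2a at a ratio of 0.00 in the authors' deposited table. On chromosome 22 (5243798 to 5258946), the level fell from 3.46 to 2.13 FPKM. The called locus with the highest level, on chromosome 19 (4505389 to 4541651), fell from 145.0 to 128.9 FPKM.

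**Figure D4:**
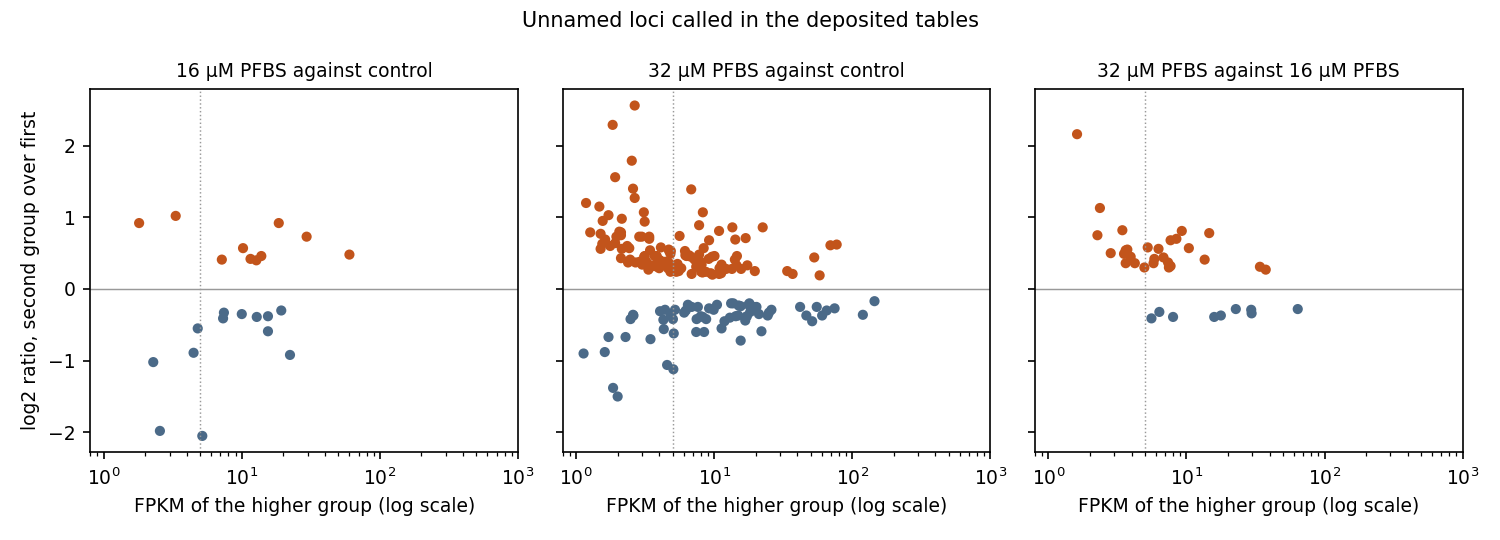
Log2 ratio of each called unnamed locus against the FPKM of its higher group on a log scale, in the 3 comparisons; points above 0 are higher in the second group, the dotted line marks 5 FPKM, and the loci listed at 0 in a group (2 at 32 µM against control, 3 between the doses) are not drawn. At 32 µM against control the points left of the dotted line are mostly above 0, 67 rising and 16 falling once the loci listed at 0 are counted, and those right of it are divided 55 to 50.

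At 32 µM, 8 pairs of called unnamed loci lay within 5 kb of each other, and each pair moved in 1 direction. Beside the pair near il2rga, the loci on chromosome 22 at 30190308 to 30190842 and 30190895 to 30191446, 53 bases apart, fell from 74.5 to 61.4 and from 46.5 to 35.8 FPKM. On chromosome 23 the loci at 16449238 to 16450211 and 16451658 to 16452027 fell from 26.0 to 21.3 and from 119 to 93.7 FPKM. On chromosome 3 the long locus at 19276203 to 19352493 rose from 1.64 to 3.14 FPKM, and the one 237 bases beyond it (19352730 to 19353446) from 1.10 to 2.66 FPKM. The other 4 pairs, on chromosomes 6, 11, 20 and 21, rose, and the pair on chromosome 21 shares 1 locus. The tables give no strand or splice junction, so whether such a pair is 1 transcript in pieces cannot be told apart from 2 transcripts within the 32 µM table. The other tables did join some pairs. In the 16 µM table the chromosome 20 pair falls within 1 called row, at 29518063 to 29521508. In the table of both doses the chromosome 11 pair falls within 1 locus, at 43288933 to 43335490, which 2 rows share. The 8 pairs are therefore not all separate loci in every table.

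Nearest named rows were called for few of these loci. Of the 188 loci called at 32 µM, 46 shared a locus with or lay within 5 kb of a named row, and 8 had a called gene as nearest named row, 5 moving the same way and 3 the opposite way. Over all unnamed loci of the table the nearest named row was called for 1.59% to 2.33%, depending on the distance class. For the 46 near loci, the named row was called in the same direction for 4 and in the opposite direction for 1. For the 4121 uncalled loci as near, these counts were 50 and 39. A locus 80 bases from the cathepsin B gene ctsba (chromosome 17, 32836121 to 32842070) fell from 14.3 to 11.0 FPKM, and ctsba fell by 0.28 in the authors' deposited table. Beside afp4, on chromosome 16 at 48968483 to 48974092, the level fell from 22.0 to 14.6 FPKM, with afp4 at -0.22 in the authors' deposited table. On chromosome 13, 2 loci near rows named h2afy2, the gene of the variant histone macroH2A, moved with their rows in opposite directions: one at 6324161 to 6326602 fell from 4.29 to 3.20 FPKM, and one at 6487288 to 6494488 rose from 3.81 to 4.63 FPKM. The one on chromosome 8 (1403182 to 1404457), 16.7 kb from the fatty acid binding protein gene fabp1b.1, rose from 6.11 to 7.94 FPKM. In contrast, a locus 2.12 kb from the elastase gene ela3l (chromosome 5, 27745337 to 27754024) fell from 10.5 to 8.94 FPKM, whereas ela3l rose by 0.62 in the authors' deposited table.

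At 32 µM, 67 of the 188 called loci lay more than 50 kb from a named row. That is 1.56% of the unnamed loci at this distance, against 1.35% of all unnamed loci and 1.83% of all rows. The farthest, on chromosome 20 at 55768986 to 55770268 and 702 kb from pak7, rose from 6.19 to 10.9 FPKM, a ratio of 0.81 in the authors' deposited table (q = 0.00521). On chromosome 2 (46962538 to 46987690), 509 kb from the acyl-CoA synthetase gene acsl3b, a locus rose from 3.66 to 4.59 FPKM. Loci on chromosome 9 (50506270 to 50510147, 508 kb from ttc21b) and chromosome 16 (1278151 to 1349545, 453 kb from the Iroquois gene irx1a) rose from 7.01 to 8.22 and from 5.94 to 6.87 FPKM. A named gene below the level at which the tables begin would not be seen, so these distances are to the nearest listed gene.

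On the mitochondrial chromosome, which encodes subunits of the respiratory chain and the ribosomal and transfer RNAs of the organelle, 1 of 6 unnamed loci fell at 32 µM. It spans 2074 to 4860 and went from 24.4 to 18.8 FPKM, a ratio of -0.37 in the authors' deposited table (q = 0.00521). At 16 µM the corresponding row (2084 to 4876) went from 24.1 to 22.6 FPKM, with a ratio of -0.09 in the authors' deposited table (q = 0.998). Between the doses it fell from 22.8 to 18.8 FPKM (q = 0.0456). The other mitochondrial loci lay between 0.993 and 13.2 FPKM in all groups and were not called. No gene names are given for these loci, because the tables carry none.

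Between the doses, 40 unnamed loci passed the test, 30 higher and 10 lower at 32 µM than at 16 µM. That is 0.253% of the unnamed loci, against 0.329% of all rows (0.233% higher and 0.096% lower) and 0.423% of the named rows. Under 5 FPKM, all 14 called loci rose, and at 5 FPKM or more, 16 rose and 10 fell. Among named rows, all 4 called under 5 FPKM rose, and at 5 FPKM or more, 32 rose and 18 fell. The shares called were 0.125% of unnamed loci and 0.116% of named rows under 5 FPKM, and 0.571% and 0.537% above. Called or not, 295 unnamed loci under 5 FPKM were at least 2-fold higher at 32 µM and 366 at least 2-fold lower. At 5 FPKM or more, 70 were higher and 62 lower.

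A locus on chromosome 6 (25105118 to 25159728), 509 kb from lmo4b, stood at 16.0 FPKM at 16 µM and was listed at 0 at 32 µM (q = 0.0194). Conversely, the lamtor2-flanking locus on chromosome 16 was listed at 0 at 16 µM and at 2.48 FPKM at 32 µM, and a locus of 218 bases on chromosome 6 (52255532 to 52255750) at 0 and 3.10 FPKM. An erf-flanking locus on chromosome 19 (6748669 to 6750207), longer than that of the 32 µM table, rose from 0.363 to 1.61 FPKM, a ratio of 2.16 in the authors' deposited table (q = 0.0331). The asic4a-flanking locus on chromosome 9 (11146628 to 11148351) rose from 1.09 to 2.36 FPKM, and the mrps7-flanking locus on chromosome 24 (16369752 to 16370944) from 8.51 to 14.6 FPKM. The first had fallen at 16 µM against the control in a span that meets the 90% match, and the 16 µM samples enter both comparisons. The second spans 1192 bases and contains the stretch of the 519-base row that fell at 16 µM, but the 2 rows do not have the same ends. In the table of 32 µM and control the longer row rose, from 11.6 to 14.5 FPKM (q = 0.0243). A locus 453 kb from irx1a on chromosome 16 (1278151 to 1340603) rose from 1.95 to 3.43 FPKM. It is shorter than the row of the 32 µM table there, which gave 6.87 FPKM for the same 32 µM samples, and the pair does not meet the 90% match. Increases were also found at a locus on chromosome 6 (46183275 to 46184121), from 5.28 to 9.25 FPKM, and at one on chromosome 11 (43288933 to 43335490), from 1.35 to 2.27 FPKM. On chromosome 5, the longest called locus of this table (2523839 to 2639670, 115831 bases), 2.64 kb from hspa5, a chaperone gene of the endoplasmic reticulum, rose from 3.29 to 4.23 FPKM.

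Apart from the locus listed at 0, the called decreases between the doses were small. Loci on chromosome 17 (26807068 to 26818872), chromosome 23 (10459183 to 10462351, 1.20 kb from the keratin gene krt18) and chromosome 25 (31287995 to 31289278) fell from 5.58 to 4.20, from 8 to 6.11 and from 15.9 to 12.2 FPKM. Their ratios in the authors' deposited table were -0.41, -0.39 and -0.39. Loci on chromosome 6 (23992409 to 23993861), chromosome 17 (42978861 to 42980232), chromosome 16 (18720422 to 18754288) and chromosome 11 (20535405 to 20544867) fell from 17.8 to 13.7, from 29.7 to 23.3, from 6.36 to 5.06 and from 29.4 to 24.1 FPKM. The strongest of the called loci far from genes, on chromosome 13 (1601994 to 1657456, 321 kb from bag2), fell from 64.0 to 52.7 FPKM, a ratio of -0.28 in the authors' deposited table. All of these lay within a log2 ratio of -0.28 to -0.41.

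Few unnamed loci kept the same ends from table to table. Only 100 had an identical locus, unique in each, in all 3 tables, which is 0.629%, 0.715% and 0.633% of the members of the tables. In pairs of tables the counts were 837, 3485 and 2070. Loci whose spans cover at least 90% of each other in all 3 tables numbered 5671. The 100 identical loci were stronger than the rest, with a median of 9.65 FPKM in the control, and 1 of them was called, at 32 µM, on chromosome 10 at 45680914 to 45683166, 19.1 kb from the translation factor gene denr. It went from 11.1 to 13.5 FPKM there, a ratio of 0.28 in the authors' deposited table (q = 0.00918), and from 11.0 to 12.4 FPKM at 16 µM. Among the 100, the control levels in the tables for 16 and 32 µM, which come from the same 3 samples, differed by a median of 0.01 on the log2 scale, and 98 were within 0.1. Among the 5671 the median was 0.03 and the 95th percentile 0.31. Over the 5671, the ratios at 16 µM and between the doses added up to the ratio at 32 µM within 0.1 for 95.3% of loci. The same loci's control levels were within 0.1 of each other for 80.1%.

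Of the 5671 loci matched in all 3 tables, 12 were called at 16 µM and 100 at 32 µM against the control. Among them, 10 passed the test at both doses, each against the same control samples, 2 higher and 8 lower. With a match in the 2 tables against the control alone, a choice made after the data were seen, they were 13, 4 higher and 9 lower. The 3 added loci include the largest increase and the largest decrease at 16 µM. In the authors' deposited tables for 16 and 32 µM, the locus on chromosome 3 at 19276209 had ratios of 1.02 and 0.94, that on chromosome 2 at 50019606 of 0.42 and 0.69, and that on chromosome 12 at 17700526 of -2.05 and -1.12. The locus 23.5 kb from sox9b, left out of both joins because another row shares it, had 0.92 and 0.71 in the authors' deposited tables. The values of the 10 are given side by side. At the locus on chromosome 2 (14523461 to 14529200) the ratios were -0.89 at 16 µM and -1.06 at 32 µM in the authors' deposited tables, and next to rprd2a on chromosome 19 they were -0.59 and -0.72. The locus on chromosome 11 at 41491756 to 41497255 had -0.41 and -0.60. Increases in the authors' deposited tables were those of the chromosome 20 locus far from pak7 (0.57 and 0.81) and of the chromosome 16 locus near slc50a1 (0.48 and 0.44). The other 5 fell from control levels between 7.41 and 19.3 FPKM in the 16 µM table. In the authors' deposited tables their ratios ran from -0.39 to -0.30 at 16 µM and from -0.42 to -0.32 at 32 µM. They lie on chromosome 7 (77093105 to 77099097), chromosome 10 (18016939 to 18018985, 40.4 kb from the kinase subunit gene prkab1a), chromosome 25 (27525744 to 27540063 and 35458330 to 35467548, the second 2.18 kb from the nuclear pore gene nup160) and chromosome 1 (52887152 to 52895322). None of the 10 was called between the doses. The chromosome 1 locus had unlike control levels in the tables, 9.99 FPKM in the 16 µM table and 18.3 FPKM in the 32 µM table.

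**Figure D5:**
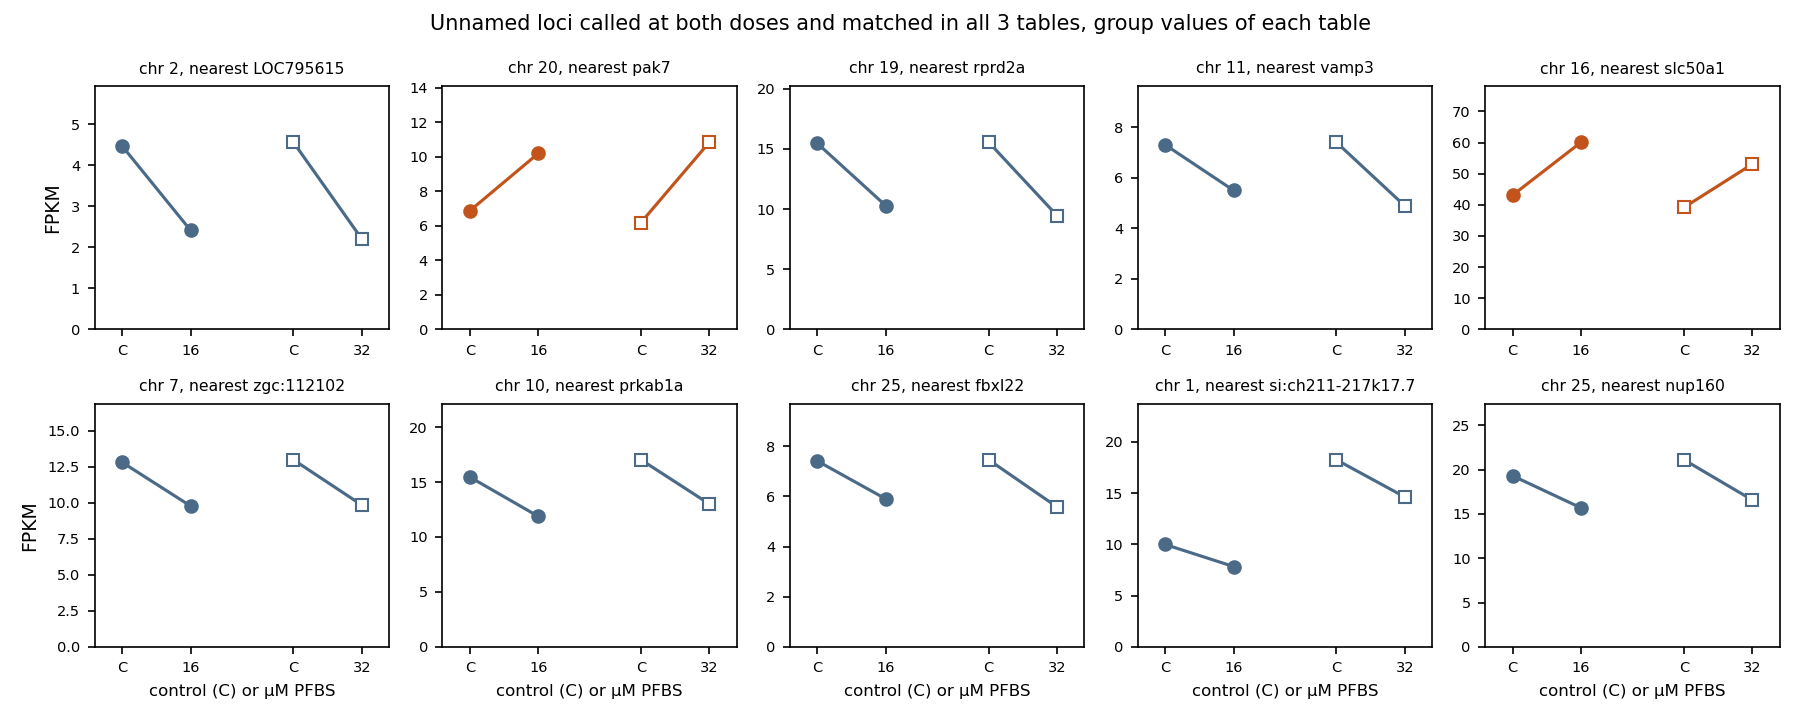
FPKM of the 10 unnamed loci called at both doses and matched in all 3 tables, in the table of 16 µM and control (filled circles) and in that of 32 µM and control (open squares); each panel names the chromosome and the nearest named row of the 32 µM table. The 2 loci on chromosomes 20 and 16, with pak7 and slc50a1 as nearest named rows, rise and the other 8 fall. Where a match in the 2 tables against the control is enough, the counts are 4 and 9. The control value of the chromosome 1 locus differs between its 2 tables (9.99 and 18.3 FPKM).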

How the data were processed

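RNA from 9 pools of embryos was selected for poly(A) and sequenced as stranded paired-end libraries, per the labels' protocols. The submitters' processing notes name Cufflinks and danRer7. Versions, aligner, annotation and statistical test were not stated. For each pair of groups the authors deposited log2 FPKM per group, a log2 ratio and a q-value, per the file headers. On every row the deposited log2 ratio equals second minus first group within 0.01, and calls are q-values under 0.05. A deposited log2 value of -10 stands for 0 FPKM. The tables hold no values per sample (0 such columns were left unused), so no spread, count or depth could be computed. Nothing says that the samples of a group came from separate spawnings or exposures, so the q-values may measure technical spread.

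Members were rows with a dash as gene name outside chromosome 4. Medians of ratios leave out loci listed at 0. The nearest named row is that of the same table by span, and the one with the highest mean level at ties. Tables were joined by identical unique locus or, as an alternative, by 90% of each span. Counts and percentiles were computed in Python 3.11.15 with pandas 2.3.3 and numpy 2.4.6. The member rule and the joins were first tried on simulated data with identical spans. The 90% join was thus not tried on shifted ends. Correlations are descriptions. Loci were named by rule, per comparison: the 8 largest called increases and decreases that reach 1 FPKM, the 5 highest levels, the longest and shortest called, the 5 called farthest from a named row, and up to 12 called at both doses. By identical locus the last set was empty, so the 90% join was used. Loci beside a called gene, in called pairs or on the mitochondrial chromosome, the splits at 5 FPKM and at 1000 bases, and the correlation at 5 FPKM were chosen after values were seen. The members and lists were chosen with earlier results of these data known. Sequences of the loci were not used here.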

Additional observations from a re-analysis of the deposited data

How the results depend on the processing

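No paired analysis was possible because the tables hold no value per sample, and for the same reason no sample could be left out. At a q-value under 0.01 the called unnamed loci were 0 at 16 µM, 103 at 32 µM and 0 between the doses by the authors' q-values, whose test was not stated. The lowest q-value of any row was 0.0219 at 16 µM, 0.00521 at 32 µM and 0.0194 between the doses. Both counts of 0 were thus fixed in advance and say nothing on how firm those calls are. Unadjusted p-values recovered from the q-values, which are upper bounds at ties, were under 0.05 for 137, 1491 and 316 unnamed loci. These were 0.862%, 10.7% and 2.002% of the unnamed loci, against 1.33%, 11.2% and 2.52% of all rows. The share of unnamed loci was thus under that of all rows in each table. With 5 FPKM or more in the higher group, 105 were called at 32 µM and 26 between the doses, and the share of higher calls at 32 µM went from 64.9% to 52.4%. The other settings (q under 0.1, 1 FPKM, chromosome 4 included, numbered chromosomes only, no base shared with a named row, 1 row per locus) left the counts within 1.5 times.

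The median log2 ratio at 5 FPKM or more was 0.00 at 16 µM, 0.01 at 32 µM and 0.01 between the doses, and on log2 of FPKM + 1 it was 0.028 and 0.025 at 16 and 32 µM.
The median level on the log2 scale was 1.38 and 1.35 at 1 FPKM or more (16 µM table and both doses). At 5 FPKM or more it was 3.12, 3.10 and 3.13, and with 1 row per locus 1.23, 1.52 and 1.25.
The median span was 3897 and 4093 bases at 1 FPKM or more (16 µM table and both doses). At 5 FPKM or more it was 7333, 7075 and 7708 bases, and with 1 row per locus 2682, 3169 and 2820 bases.
The percent of loci apart from named rows was 96.2 at 5 FPKM or more in the 16 µM table, 98.0, 98.0 and 97.8 with 1 row per locus, and 69.9, 70.2 and 69.4 where apart means more than 5 kb away.
By 90% of each span, 5671 loci joined in place of 100, and 10 loci were called at both doses, or 13 with a match in the 2 tables against the control alone. Each setting changes, by its construction, which rows are kept or how a row is scored.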

Other observations

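Rows that share 1 locus gathered many unnamed transcripts. In the table of 16 µM PFBS and control, 2097 unnamed rows shared their locus with another row, 553 of them with a named row at 298 loci and 1544 only with other unnamed rows at 540 loci. The most unnamed rows at 1 locus was 32. Of the called unnamed rows, 1 of 23 at 16 µM, 12 of 188 at 32 µM and 5 of 40 between the doses shared a locus.

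In the table of 16 µM and control, 1395 unnamed loci reached 1 FPKM at 16 µM alone and 553 in the control alone, against 90 and 81 named rows. In that of 32 µM and control the counts were 791 and 380, against 41 and 58 named rows. Between the doses 890 reached it at 32 µM alone and 1116 at 16 µM alone, against 84 and 85 named rows. A locus that reaches this level in 1 group alone differs between the groups by definition, so these counts describe the tables and test nothing.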
